A study of Mus musculus with 472 samples.

Results

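Meningeal cells taken from over the anterior and over the posterior cortex of 3-month-old mice were compared, using the 3-prime libraries of a single-cell RNA-sequencing study run on ICELL8 chips, on which each well receives 1 cell. The members are the cells whose column names carry 3A_ (anterior) or 3P_ (posterior) and a well barcode, and which had a count in at least 500 genes. This left 16 of 26 anterior and 18 of 37 posterior cells, 34 of the 472 cells in the whole series. Both groups were male C57BL/6 mice with no treatment or engineered allele named in the labels, and both came from the same pool of 6 mice, so they differ by region alone as far as the labels say. No animal is named and each region is 1 sample. The differences below therefore have no replicate check, no p-value is given, and a difference between regions cannot be told apart from a difference between these 2 sets of wells.

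The leptomeninges, the pia and arachnoid on the brain surface, hold fibroblasts that lay down collagen, arteries and veins with their endothelium, smooth muscle and pericytes, and resident macrophages. Smooth muscle and pericytes are together called mural cells. They carry the contractile proteins Acta2 and Myh11, and the forkhead factor Foxc1 acts in the development of the meninges and of mural cells. Meningeal and perivascular macrophages are known for the mannose receptor Mrc1, the chemokine Pf4 and the complement starter proteins C1qa, C1qb and C1qc. Venous endothelium carries the chemokine-binding receptor Ackr1 and the clotting protein Vwf.

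Each cell is known by a well barcode of 11 bases, and 0 barcodes were shared between the anterior wells, the posterior wells and the 18-month posterior wells of the same library type. The closest barcodes of the 2 regions differed at 3 bases. The kept anterior wells held 11030 to 331786 counts (median 24489) and 575 to 2138 genes, and summed to 1076803 counts. The kept posterior wells held 14809 to 279706 counts (median 34162.5) and 522 to 2475 genes, and summed to 1202100 counts. The deepest anterior well alone gave 30.8% of the anterior sum with only 665 genes, and mitochondrially encoded genes took 40.6% of its counts. The deepest posterior well gave 23.3% of the posterior sum. Mitochondrially encoded genes took a median of 17.3% of a well's counts in the anterior and 27.5% in the posterior group, and ribosomal protein genes took 4.62% and 2.00%. Values below are CPM, the counts of a gene scaled to an equal total, either within a well or over the group's sum, and a log2 ratio is anterior over posterior with 1 CPM added to each side. Bracketed ranges are 95% exact intervals of the ratio. They cover the counting error of reads only. The labels mention no molecular identifiers, so PCR copies count as separate reads and the intervals can be too narrow.

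In both regions the largest share of the wells carried smooth muscle markers. At least 4 of the 7 smooth muscle markers were counted in 8 of 16 anterior and 10 of 18 posterior wells. At least 6 of 12 endothelial markers were counted in 0 anterior and 3 posterior wells, and at least 6 of 12 macrophage markers in 0 anterior and 3 posterior wells. The richest anterior well had 5 macrophage markers, while the 3 posterior wells had between 9 and 11. No kept well of either region held more than 3 of 12 fibroblast markers. Of these the collagen gene Col1a1 and the matrix gene Lum had 0 counts in both groups, while 6 were measured and the list summed to 633 CPM in anterior and 2589 CPM in posterior wells. Microglia, mast cell, Schwann cell, choroid plexus, osteoblast and cycling cell lists had no gene at 10 CPM in either region.

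**Figure D1:**
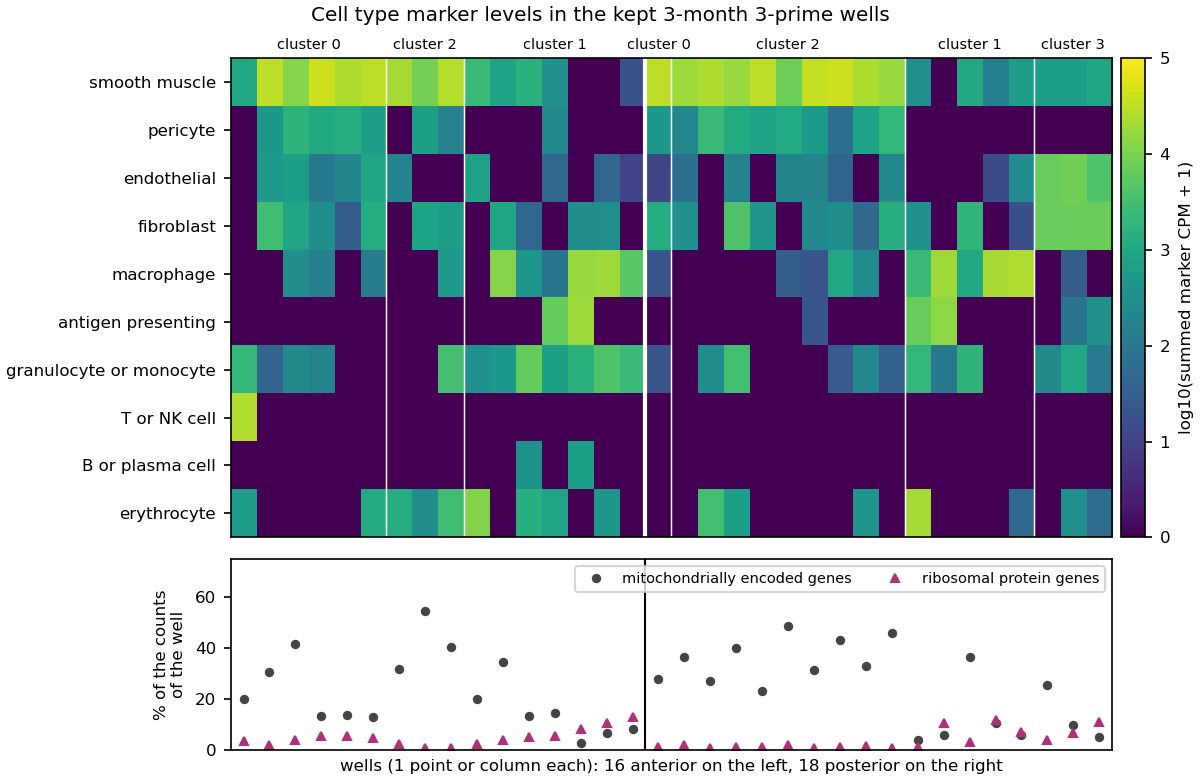
Each column is 1 well, 16 anterior on the left and 18 posterior on the right, and each row of the upper panel is a marker list coloured by the log10 of its summed CPM plus 1. The lower panel gives the percent of each well's counts from mitochondrially encoded and from ribosomal protein genes, and the 3 wells rich in endothelial markers are all posterior.

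Clustering of these cells with the 39 posterior 18-month cells of the same library type gave smooth muscle-like, endothelial-like, fibroblast-like and unnamed clusters. Smooth muscle-like cells were 9 of 16 anterior wells (56.3%, Clopper-Pearson interval 29.9% to 80.3%) and 10 of 18 posterior wells (55.6%, 30.8% to 78.5%). They came from different clusters: 6 of the 9 anterior wells lay in a cluster led by Ugp2, Tsga10 and Mesd, called cluster 0 here, and 9 of the 10 posterior wells in a cluster led by Ppp1r3c, Adamts15 and Heyl, called cluster 2. Cluster 0 held 1 posterior well and cluster 2 held 3 anterior wells, among them the deepest anterior well. An unnamed cluster led by the leukocyte genes Cytip, Ifi207, Ccr2 and Ccr1, with 10 raised macrophage, 4 raised antigen presenting and 4 raised erythrocyte markers, held 7 anterior (43.8%, 19.8% to 70.1%) and 5 posterior wells (27.8%, 9.70% to 53.5%). The endothelial-like cluster held 3 posterior wells (16.7%, 3.58% to 41.4%) and 0 of 16 anterior wells, for which the interval reaches 20.6%. At a lower clustering resolution these 3 wells joined the smooth muscle-like cells and the unnamed cluster was named macrophage-like, so the classes are no firm types, and values within them are given below beside the clusters they came from. At a higher resolution the unnamed wells split. A macrophage-like cluster took 2 of the 7 anterior and 3 of the 5 posterior wells, a cluster led by Ccl6, Arhgap45 and Pim1 with 4 raised erythrocyte markers took 4 and 2, and a B or plasma cell-like cluster took 1 and 0. The regions thus held different mixes within the unnamed cluster. Endothelial-like clusters of that higher resolution held 2 of 16 anterior wells (12.5%) and 4 of 18 posterior wells (22.2%), so the 0 anterior wells above depend on the resolution. An anterior well of cluster 0 held 2 smooth muscle markers at 963 CPM and 2 T or NK cell markers at 25405 CPM. Of the latter the T cell chemokine Ccl5 was 23891 CPM. List medians and gene ratios within smooth muscle-like cells were also computed without this well. It stays in the share of that class and in the member counts and naming rule within it.

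Across genes, the 2 regions differed widely and mostly through single wells. Of 7364 genes at 10 CPM or more in either region, 2381 (32.3%) were at least 2-fold higher in anterior and 3390 (46.0%) at least 2-fold lower, so 78.4% passed that fold in some direction. Among the 4014 genes at 50 CPM or more the shares higher and lower were 31.8% and 44.2%. Counts of list members over all kept wells are to be set beside the shares of the 7364 genes. The median log2 ratio over the 7364 genes was -0.62 in the sums and -0.15 when every well was weighted equally. Scaling the sums by TMM factors moved log2 ratios up by 0.196 or less and median-of-ratios scaling by 0.203 or less, with smaller shifts at low CPM. In 6240 genes (84.7%), 1 well held more than 50% of the counts of the higher region. Without the well that held most of a gene's counts, 801 of the 2381 higher genes (33.6%) and 1450 of the 3390 lower genes (42.8%) still passed 2-fold. In these pooled sums, fewer cells of a type and less RNA per cell cannot be told apart. The description below therefore leans on how many wells held a gene and on values per well. The rule for named genes asked for a count in at least 5 wells and in at least 25% of the wells, no well above 50% of the counts, and 2-fold or more in both the sums and the mean of wells. It was met by 52 genes higher in anterior (0.706%) and by 1.71% of the measured genes lower.

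**Figure D2:**
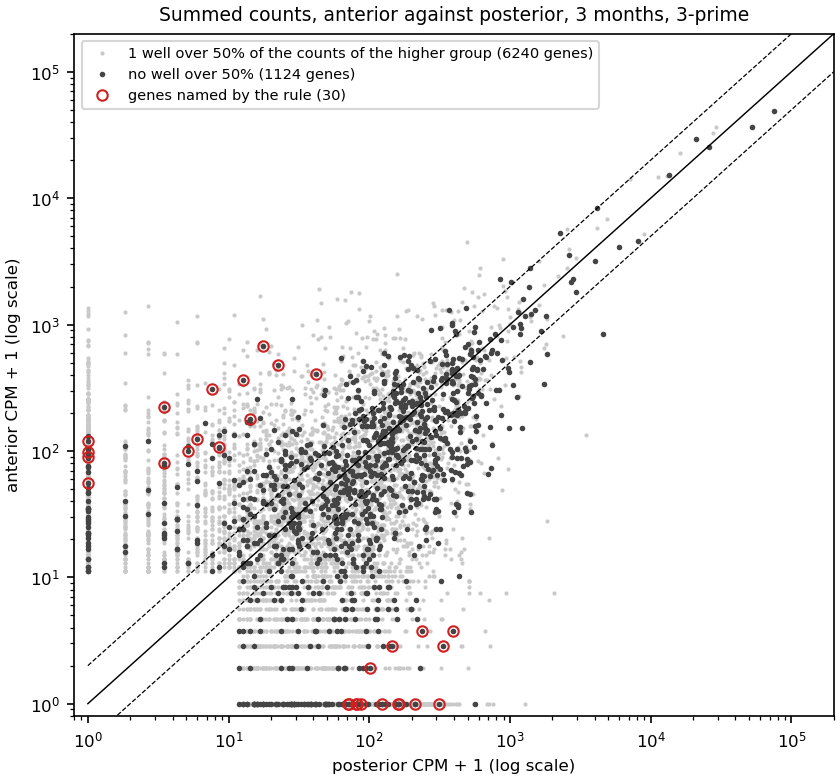
Summed CPM plus 1 of 7364 genes in the posterior (horizontal) and anterior (vertical) wells, both on log axes, with a solid line at equal levels and dashed lines at 2-fold. Grey points are the 6240 genes in which 1 well held over 50% of the counts, dark points the other 1124, and red rings the 30 named genes, which lie outside the dashed lines.

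Complement genes were lower in anterior wells, and most of their counts lay in posterior wells of the unnamed cluster. Complement is the protein cascade that tags debris and microbes for uptake. Of 15 measured genes of the complement list, 0 were at least 2-fold higher and 14 at least 2-fold lower in anterior wells, against 32.3% and 46.0% of all genes. The median log2 ratio of the list was -5.13, or -4.51 with genes at 0 set to the level of 3 counts over the group, against -0.62 for all genes. Summed over the list, complement genes were at 216.4 CPM in anterior and 2798 CPM in posterior wells. In 7 of 16 anterior and 14 of 18 posterior wells at least 1 count of the list was seen. These counts lay mostly in the unnamed cluster, at 8887 CPM in its 5 posterior wells and 403 CPM in its 7 anterior wells.

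The C1q genes, whose 3 products join into the first recognition molecule of the cascade, carried much of this. They lie together within 18675 bp on the minus strand of mouse chromosome 4 (mm10, GENCODE M21): C1qb at chr4:136880129-136886187, C1qc at chr4:136889804-136893065 and C1qa at chr4:136895917-136898803. Bases upstream of C1qc and C1qb (RefSeq, GRCm38.p6, minus strand) are shown because the 2 genes were high in the same posterior wells. For C1qb these are the 250 bases before the RefSeq start. For C1qc the RefSeq start lies inside the GENCODE gene, so the part of its window within the gene was left out and 99 are shown. No window is shown for C1qa, because the set of upstream windows used here held no C1qa entry. The capitals mark the match to GAGGAA, read on either strand. It holds GGAA, the core letters of ETS-family factor sites, and other GGAA matches in the windows are not marked.

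C1qc, chr4:136893066-136893164: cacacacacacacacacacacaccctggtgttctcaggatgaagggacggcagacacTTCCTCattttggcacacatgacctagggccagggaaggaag
C1qb, chr4:136886201-136886450: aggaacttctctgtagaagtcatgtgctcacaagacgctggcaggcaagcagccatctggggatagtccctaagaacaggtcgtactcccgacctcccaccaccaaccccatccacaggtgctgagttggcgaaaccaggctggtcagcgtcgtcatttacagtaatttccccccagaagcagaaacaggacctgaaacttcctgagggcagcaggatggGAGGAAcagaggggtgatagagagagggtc

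Each window held 1 match to the full GAGGAA and 0 matches to TATAAA on either strand. Of 32851 windows, 7639 (23.3%) held the first and 4063 (12.4%) the second in 250 bases. In the 99 bases farthest upstream, 3254 (9.91%) and 1707 held them. C1qb was counted in 1 anterior well, at 279 CPM in a smooth muscle-like well, and in 5 posterior wells at 19.9, 21.0, 1951, 4702 and 6060 CPM. The 3 high values were all in the unnamed cluster, and the group sums were 6.50 and 943 CPM (log2 ratio -6.98 [-8.50 to -6.13]). C1qc had 0 anterior counts and 434 posterior counts in 4 wells, at 29.0, 843, 1064 and 2587 CPM, and was at least 129.6-fold lower in anterior wells when 0 is set to 3 counts over the group. C1qa had 0 anterior counts and was at 141.9, 161.01, 619 and 1496 CPM in 4 posterior wells of the unnamed cluster, at least 74.6-fold lower in anterior wells. All 3 genes were counted together in 3 wells, any of them in 8, and only 1 of those 8 was anterior.

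The complement receptors C3ar1 and C5ar1, which sense cleaved complement fragments, had 0 anterior counts and were each seen in 3 posterior wells, at summed levels of 108.98 and 82.4 CPM. They were at least 39.1-fold and 29.6-fold lower in anterior wells.

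Chemokines, the secreted proteins that guide leukocytes, followed the same wells. Of 14 measured genes of the chemokine and cytokine list, 2 were at least 2-fold higher and 12 lower in anterior wells. The shares of all genes were 32.3% and 46.0%. The median log2 ratio of the list was -5.33 (-3.82 with 0 set to 3 counts). The list summed to 609 CPM in anterior and 3073 CPM in posterior wells. Ccl12, a ligand of the monocyte receptor Ccr2 on chromosome 11 (chr11:82101845-82103400), had 0 anterior counts and was at 389.2, 3373, 5689 and 9294 CPM in 4 posterior wells. Its posterior sum was 562 CPM and it was at least 201.55-fold lower in anterior wells. Ccl4 and Ccl3, macrophage inflammatory proteins, and Ccl7, another monocyte attractant, each had 0 anterior counts and were seen in 3 posterior wells, at 434, 185.5 and 270.4 CPM. They were at least 155.9-fold, 66.6-fold and 97.04-fold lower. Ccl2 was at 6.50 and 614 CPM (log2 ratio -6.36 [-7.88 to -5.51], 1 and 4 wells), and Cxcl2, which attracts neutrophils, at 65.9 and 652 CPM (log2 ratio -3.29 [-3.68 to -2.95], 2 and 4 wells). Ccl5 went the other way with 521 anterior and 0 posterior counts, all from the well with T or NK cell markers.

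The macrophage list, which shares C1qa, C1qb and C1qc with the complement list, was less one-sided over all kept wells. Of 11 measured markers 1 was at least 2-fold higher and 6 lower in anterior wells, against 32.3% and 46.0% of all genes. The median log2 ratio was -1.89. Mrc1 was counted in 1 anterior and 4 posterior wells (1.86 and 446.7 CPM, log2 ratio -7.29 [-10.96 to -6.05]). Pf4 had 0 anterior counts and 756 CPM in 4 posterior wells, at least 271-fold lower. Lyz2, a lysozyme of macrophages, monocytes and neutrophils, was by contrast counted in 7 anterior and 5 posterior wells, at 1977 and 1372 CPM (log2 ratio 0.53 [0.43 to 0.62], and as low as -0.07 over the alternative settings). Cd68, a lysosomal membrane protein of phagocytes, was at 104.01 and 7.49 CPM (log2 ratio 3.63 [2.82 to 4.96], 4 and 1 wells).

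Plac8, Fgr, Rac2 and Cytip, genes of circulating leukocytes, were higher in anterior wells. Plac8 (chr5:100553725-100572245), found in monocytes, granulocytes and lymphocytes, was at 168.8, 1420, 2146, 2458 and 3234 CPM in 5 anterior wells and at 26.0 CPM in 1 posterior well. With a count in 1 posterior well only, overlap between the regions cannot be judged. The sums were 1403 and 1.66 CPM (log2 ratio 9.04 [7.86 to 12.77], from 1511 and 2 counts). Of the anterior counts 430 lay in 3 wells of the unnamed cluster. The deepest anterior well, a smooth muscle-like well of cluster 2 with 6 smooth muscle markers, gave 71.0% of the anterior counts. Over the settings tried, which include leaving that well out, the ratio lay between 7.54 and 9.21. Fgr (chr4:132974095-133001910), a Src-family kinase of myeloid cells, was at 72.8, 195.1, 199.5, 815, 971 and 1215 CPM in 6 anterior wells, 5 of them in the unnamed cluster, and had 0 posterior counts. It was at least 39.1-fold higher in anterior wells. Rac2, a small GTPase of blood cells, was also counted in 6 anterior and 0 posterior wells, at 89.2 CPM in sum and at least 35.7-fold higher. Cytip, which regulates adhesion of leukocytes and is among the leading genes of the unnamed cluster, was at 404 CPM in 6 anterior wells and 40.8 CPM in 1 posterior well (log2 ratio 3.28 [2.88 to 3.77]). The granulocyte and monocyte list had 5 measured genes, 3 higher and 2 lower, with a median log2 ratio of 1.09. Erythrocyte genes were counted in 9 of 16 anterior and 7 of 18 posterior wells, with Hbb-bs at 803 and 51.6 CPM and Hba-a1 at 208.02 and 212.1 CPM. Of the 5 markers of that list Alas2 was at 0 in both regions, 2 of the 4 measured were at least 2-fold higher in anterior wells and 0 lower, and the list reached 11468 CPM in an anterior and 20771 CPM in a posterior well. The part of blood cells in the result was not tested.

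Values within the unnamed cluster set 7 anterior against 5 posterior wells. Complement had 0 of 10 measured genes higher and 9 lower, with a median log2 ratio of -8.46. Chemokines had 1 of 12 higher and 11 lower, with a median of -6.92, and the granulocyte and monocyte list 4 of 5 higher and 1 lower, with a median of 3.94. The macrophage list had 2 of 12 higher and 7 lower, with a median of -3.50. The median of all 5662 genes measured there was 0.27, with 44.4% at least 2-fold higher and 40.7% at least 2-fold lower. Among the macrophage-like wells of the higher resolution alone, complement summed to 2690 CPM in 2 anterior and 10386 CPM in 3 posterior wells. Chemokines summed to 2642 and 14486 CPM there, and the granulocyte and monocyte list to 3611 and 12.8 CPM. The macrophage list itself was at 6205 and 23274 CPM, so these wells were not alike in macrophage markers. Of the 2 anterior wells, 1 held 420.7 CPM of the macrophage list and 6544 CPM of the granulocyte and monocyte list. In the cluster led by Ccl6, complement was at 0 CPM in 4 anterior wells and 1791 CPM in 2 posterior wells. The granulocyte and monocyte list was at 2502 and 1872 CPM there. The macrophage list had the opposite order to complement, at 9932 and 1590 CPM. The part of the different mix of wells in these values was not tested. The naming rule was met by 16 genes higher (0.283%) and 4 lower (0.0706%). Among the higher ones, picked after their values were seen, were Fgr (log2 ratio 8.50), the leukocyte membrane protein Fxyd5 (6.47), the actin-binding peptide Tmsb10 (6.17), the LIM protein Crip1 (5.93) and the antioxidant enzyme Gpx1 (3.02). The 4 lower genes were the transcription factor Klf6 (-4.27), the lipid carrier Apoe (-2.45), the splicing factor Tra2b (-2.21) and the histone gene H3f3b (-1.34). Apoe was at 3240 CPM in the anterior and 17665 CPM in the posterior wells of this cluster, and counted in 5 wells of each. Over all kept wells it was at 845 and 4564 CPM (log2 ratio -2.43 [-2.54 to -2.33], 7 and 10 wells). Klf6 over all wells was at 65.0 and 700.4 CPM (log2 ratio -3.41 [-3.80 to -3.08]), although 8 anterior and 7 posterior wells held it.

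Endothelial genes were higher in posterior wells, and the counts came mainly from the 3 endothelial-like wells. Of 10 measured endothelial markers 1 was at least 2-fold higher and 9 lower in anterior wells, against 32.3% and 46.0% of all genes. Their median log2 ratio was -4.07 (-4.03 with 0 set to 3 counts). Of 11 measured genes of arteries and veins, 1 was higher and 9 lower, with a median of -4.68. Without the endothelial-like wells that median was 0.90, so the direction of the artery and vein list rests on 3 wells. Ackr1 (chr1:173331886-173333750, overlapping Cadm3) was at 160, 335.3, 544 and 1076 CPM in 4 anterior wells and at 172.5, 260.3, 773, 11122 and 29221 CPM in 5 posterior wells. The 2 highest were endothelial-like wells, and the other 7 wells overlapped between regions. The sums were 133.7 and 3465 CPM (log2 ratio -4.68 [-4.95 to -4.46]), but the ratio was 1.24 without the endothelial-like wells. Vwf, which with Ackr1 leads that cluster, had 1 anterior count and was at 147.5, 988, 1745 and 2338 CPM in 4 posterior wells, of which the 3 highest were endothelial-like.

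Other endothelial members had few or no anterior counts. The angiopoietin receptor Tek and the kinase Bmx each had 0 anterior counts and were seen in 3 posterior wells, at 57.4 and 153.9 CPM, at least 20.6-fold and 55.2-fold lower in anterior wells. The tight junction protein Cldn5 had 0 anterior counts and 17 posterior counts in 4 wells, at least 5.08-fold lower. Pecam1, the adhesion molecule of endothelium and platelets, was at 2.79 and 64.1 CPM (log2 ratio -4.10 [-6.83 to -2.92], from 3 and 77 counts). The sialomucin Emcn came from 1 posterior well. Blood-brain barrier transporters named here were also lower in anterior wells. Abcb1a, a drug efflux pump, was at 5.57 and 711 CPM (log2 ratio -6.76), but 96.3% of the posterior counts were in 1 well. Slc2a1, the glucose transporter, was counted in 1 anterior and 5 posterior wells, at 1.86 and 142.3 CPM (log2 ratio -5.65 [-9.32 to -4.38]). A smooth muscle-like well held 94 of its posterior counts (55.0%), the 3 endothelial-like wells held 75 and 1 well of the unnamed cluster held 2. The glutamine transporter Slc38a5 had 0 anterior counts and 2 posterior wells. Of 19 measured transporter and barrier genes, 4 were higher and 12 lower, with a median of -4.29 (-3.21 with 0 set to 3 counts), and within smooth muscle-like wells the median was 0.14.

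Contractile genes of mural cells were counted in 14 of 16 anterior and 17 of 18 posterior wells. The 7 markers summed to 20779 CPM in anterior and 12873 CPM in posterior wells, but the median well had the opposite order, at 5774 and 12362 CPM. The highest wells were at 42501 and 41679 CPM, and the ranges overlapped. The 7 smooth muscle markers had 3 genes at least 2-fold higher and 0 at least 2-fold lower in anterior wells, with a median log2 ratio of 0.49 that lay between -1.02 and 0.69 over the settings tried. Acta2 (chr19:34241090-34255590) was counted in 11 anterior and 15 posterior wells, with a highest value of 25851 CPM in anterior and 14917 CPM in posterior wells and medians over all wells of 1978 and 1424 CPM. The ranges of the regions overlapped over most of their span. The sums were 8403 and 4124 CPM (log2 ratio 1.03 [0.98 to 1.08]), and the ratio of the means over wells was 0.45. Myh11, the smooth muscle myosin heavy chain, was at 5801 and 4132 CPM in sum (log2 ratio 0.49 [0.43 to 0.54]), but 70.8% of the anterior counts came from 1 well and the mean over wells gave -0.61. Its median over all wells was 2497 CPM in anterior and 5463 CPM in posterior wells, the opposite order. Cnn1, calponin, was at 1518 and 457 CPM (log2 ratio 1.73), with 84.9% of anterior counts in 1 well and a ratio of -0.46 without it. Tagln and Mylk were at 930 and 1206 CPM and at 1300 and 1507 CPM. Rgs5, a pericyte regulator of G-protein signalling, was at 97.5 CPM in 4 anterior wells and 31.6 CPM in 1 posterior well (log2 ratio 1.59 [1.0772 to 2.2005]).

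Foxc1, Tbx18 and Heyl, developmental regulators that also met the naming rule within smooth muscle-like wells, were lower in anterior wells. Foxc1 (chr13:31806633-31812476) was at 147.8 and 250.9 CPM in 2 of 16 anterior wells and at 119.3, 483, 702, 726, 882, 973, 2296 and 2537 CPM in 8 of 18 posterior wells. The 2 anterior values lay at the low end of the posterior ones. The sums were 8.36 and 323 CPM, the first from 9 counts (log2 ratio -5.11 [-6.41 to -4.33]), no posterior well held more than 23.5% of the counts, and the ratio lay between -5.70 and -4.09 over the settings tried. With wells thinned to 19000 counts, Foxc1 was expected in 14.3% of 14 anterior and 43.2% of 16 posterior wells. Within smooth muscle-like wells it was in 2 of 9 anterior and 7 of 10 posterior wells, at 11.3 and 635 CPM. Since the regions drew these wells from different clusters, it was also read within cluster 2, where it was in 1 of 3 anterior and 6 of 9 posterior wells, at 8.26 and 745 CPM. The 3 anterior wells of cluster 2 held 11030, 20293 and 331786 counts, so the deepest well sets their sum.

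Tbx18, a T-box factor of mural cells, was at 13.9 and 55.7 CPM (log2 ratio -1.93 [-2.91 to -1.18], 2 and 5 wells). Heyl, a Notch effector of mural cells and a leading gene of cluster 2, was at 16.7 and 35.8 CPM (log2 ratio -1.05 [-1.98 to -0.27], 2 and 5 wells).

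Ntn4, Gja4 and Xiap, which met the naming rule within smooth muscle-like wells as well, were also lower in anterior wells or had no count there. The secreted guidance protein Ntn4 was counted in 6 anterior wells, between 28.5 and 1045 CPM, and in 11 posterior wells, between 53.4 and 1997 CPM. In 8 posterior wells it was at 950.2 CPM or more, against 1 anterior well, and the ranges overlapped. The sums were 156.02 and 567 CPM (log2 ratio -1.86 [-2.11 to -1.62]), and among smooth muscle-like wells it was in 5 of 9 anterior and 10 of 10 posterior wells. The gap junction protein Gja4 was at 88.2 and 159.7 CPM (log2 ratio -0.85 [-1.23 to -0.49], 3 and 8 wells). Xiap, an inhibitor of caspases, had 0 anterior counts and was counted in 6 posterior wells, between 7.63 and 1239 CPM, at least 57.3-fold lower in anterior wells.

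Within smooth muscle-like wells, 5618 genes were measured, with 39.4% at least 2-fold higher, 45.7% at least 2-fold lower and a median log2 ratio of -0.45. The naming rule was met by 14 genes higher (0.249%) and 45 lower (0.801%). Beside Xiap (-8.39), Foxc1 (-5.70), Tbx18 (-2.58), Ntn4 (-2.51), Heyl (-1.70) and Gja4 (-1.45), the lower genes included the Notch ligand Jag1 (-3.32) and the AP-1 factor Fosl2 (-6.51). They also held the RhoA exchange factor Arhgef12 (-5.87), the actin-binding smoothelin Smtn (-3.21), the serum response factor Srf (-1.02) and the proteoglycan NG2, Cspg4 (-1.01). These genes were picked from the 45 after their values were seen and stand for no tested group. The higher genes included the lipid-binding protein Dbi (3.89), the ferritin chain Fth1 (2.72) and 4 genes of the respiratory chain, Sdhb (4.38), Cox7a2 (2.96), Cox5a (2.72) and Ndufa2 (2.06). Fth1 was counted in 8 wells of each region, at 5909 CPM in anterior and 897 CPM in posterior smooth muscle-like wells.

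**Figure D3:**
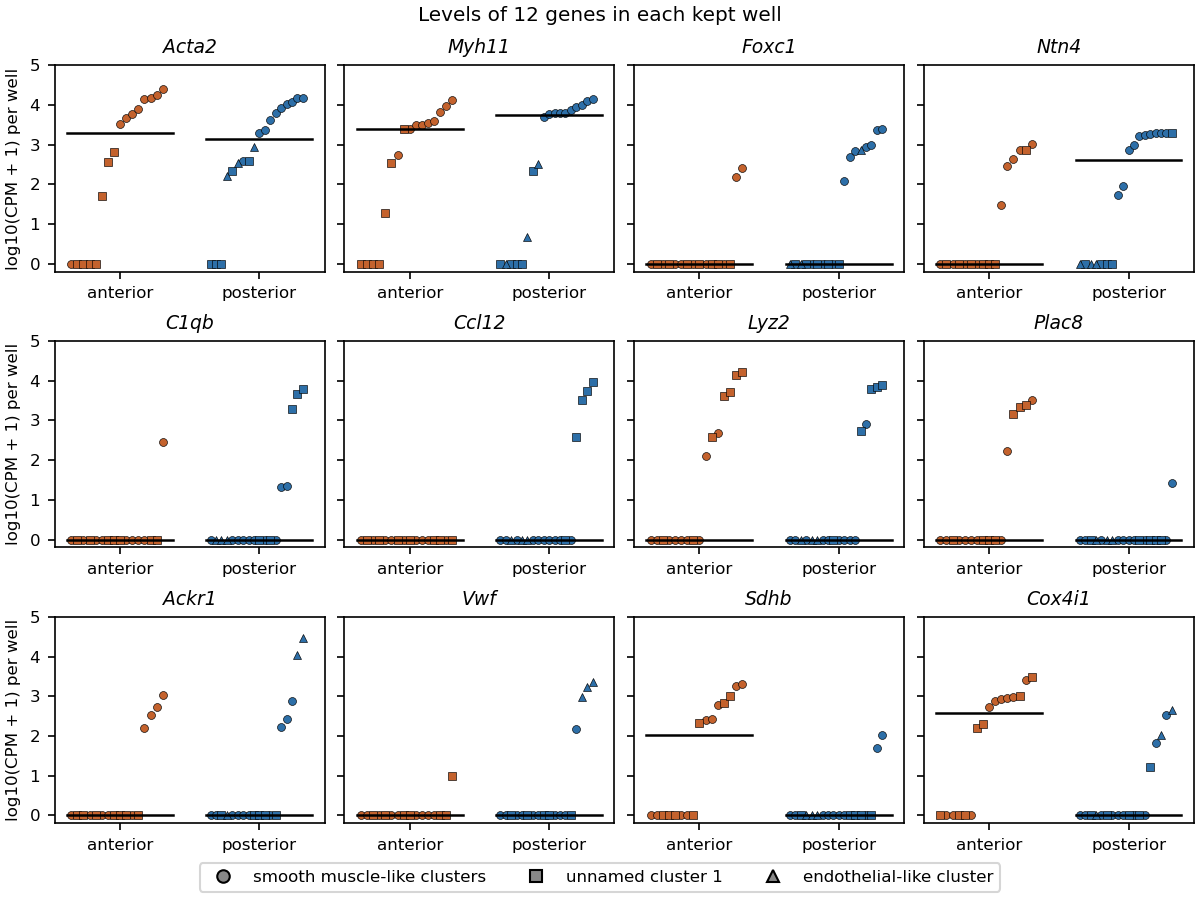
Each point is 1 well and shows the log10 of the CPM plus 1 of 1 gene, for 12 genes in anterior and posterior wells, with circles for smooth muscle-like, squares for unnamed and triangles for endothelial-like wells and a line at the median of all wells. Foxc1 and Ntn4 are above 0 in more posterior wells, Sdhb and Cox4i1 in more anterior wells, and the 3 highest C1qb and Ccl12 points are posterior squares.

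Nuclear genes of the mitochondrial respiratory chain had a higher median ratio than all genes, with a direction that differed between clusters of wells. The chain passes electrons to oxygen and drives the making of ATP. Of 29 measured subunit genes 12 were at least 2-fold higher and 4 at least 2-fold lower in anterior wells, against 32.3% and 46.0% of all genes, and 13 passed 2-fold in neither direction. The median log2 ratio was 0.89 against -0.62 for all genes, with a range of 0.44 to 1.89 over the settings tried. The list summed to 10876 CPM in anterior and 5403 CPM in posterior wells. Within smooth muscle-like wells 19 were higher and 4 lower, against 39.4% and 45.7% of all genes there. The median was 1.85, against -0.45. Sdhb (chr4:140961203-140979193), the iron-sulfur subunit of succinate dehydrogenase, was at 209.4 to 2026 CPM in 8 anterior wells and at 49.7 and 103.5 CPM in 2 posterior wells. Of the anterior wells 4 lay in cluster 0 and 3 in the unnamed cluster. With a count in 2 posterior wells only, overlap between the regions can hardly be judged, and the share of all genes without overlap was not computed. The sums were 306.5 and 6.66 CPM (log2 ratio 5.33 [4.53 to 6.75]), and with wells thinned to 19000 counts Sdhb was expected in 49.9% of anterior and 10.1% of posterior wells.

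Other subunits behaved alike or the opposite way. Cox4i1 (chr8:120668222-120674207, overlapping Emc8), a subunit of cytochrome c oxidase, was at 162.9 to 3068 CPM in 10 anterior wells and at 15.3 to 465 CPM in 5 posterior wells, ranges that overlap (log2 ratio of sums 3.92 [3.62 to 4.28]). Ndufb10, of complex I, was at 478 and 9.98 CPM (log2 ratio 5.45 [4.77 to 6.54], 8 and 3 wells), and Cox5b at 322 and 23.3 CPM (log2 ratio 3.73 [3.23 to 4.40], 7 and 4 wells). Uqcrh, of complex III, was lower in anterior wells at 36.2 and 429.2 CPM (log2 ratio -3.53 [-4.08 to -3.10], 4 and 10 wells), and so was the flavoprotein Sdha at 25.1 and 125.6 CPM (log2 ratio -2.28 [-2.97 to -1.73], 3 and 6 wells).

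The respiratory chain values moved with the cluster of the well. The 6 anterior wells of cluster 0 summed to 21381 CPM of the list, while the 3 anterior and 9 posterior wells of cluster 2 summed to 1696 and 2777 CPM, the opposite order, and the single posterior well of cluster 0 to 6801 CPM. Within cluster 2, Sdhb was at 8.26 and 6.36 CPM, and Cox4i1 at 16.5 and 4.24 CPM. Ribosomal protein genes took a median of 4.47% of counts in the anterior wells of cluster 0, 0.798% in those of cluster 2 and 1.36% in the posterior wells of cluster 2. Mitochondrially encoded genes took 17.0%, 40.6% and 36.7% of counts in the same wells. These shares of RNA differ along with the respiratory chain list, and their part in the result was not tested. The 13 mitochondrially encoded genes themselves had 1 higher and 2 lower, with a median of 0.18.

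Cytoskeletal genes had 11 of 24 measured members at least 2-fold higher and 3 at least 2-fold lower in anterior wells, against 32.3% and 46.0% of all genes. The median log2 ratio was 0.85 (0.17 to 1.05 over the settings tried), against -0.62. The alpha-tubulin Tuba1a was at 402.1 and 71.5 CPM (log2 ratio 2.474 [2.154 to 2.842], 7 and 10 wells). The lamin gene Lmna was at 796 and 44.1 CPM, with 94.3% of the anterior counts in 1 well. The myosin light chain Myl12a was lower at 65.0 and 335.2 CPM (log2 ratio -2.349 [-2.754 to -1.997], 5 and 9 wells; it overlaps Myl12b), and the tropomyosin Tpm4 at 13.0 and 98.2 CPM (log2 ratio -2.82 [-3.83 to -2.11], 1 and 7 wells).

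Chaperone genes, which hold other proteins in their folded state, were more often lower than higher in anterior wells. Of 16 measured, 0 were at least 2-fold higher and 10 at least 2-fold lower, against 32.3% and 46.0% of all genes. The median log2 ratio was -1.95 over the sums, against -0.62 for all genes, with a range of -1.94 to -0.84 over the alternative settings. Hsp90ab1 (chr17:45567775-45573271) was counted in 10 anterior wells, between 186.2 and 1112 CPM, and in 15 posterior wells, between 100.8 and 3857 CPM. The median over all wells was 232.9 CPM in anterior and 679.6 CPM in posterior wells, with overlapping ranges. The sums were 266 and 1114 CPM (log2 ratio -2.06 [-2.26 to -1.88]). Within cluster 2 they were 13.8 and 738 CPM, but there the deepest anterior well gives most of the anterior total. Hsp90aa1 was at 59.4 and 383.5 CPM (log2 ratio -2.67 [-3.09 to -2.31], 10 and 12 wells). Hspa8 differed less, at 549 and 674 CPM (log2 ratio -0.30 [-0.45 to -0.14], 12 and 13 wells), and its ratio reached 0.56 under another setting. Hspe1, which overlaps its partner Hspd1, was at 5.57 and 132.3 CPM in 2 and 3 wells.

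Immediate early genes, which cells switch on within minutes of stimulation or of tissue dissociation, were seen in every well of both regions. Of 19 measured, 0 were at least 2-fold higher and 8 lower in anterior wells, against 32.3% and 46.0% of all genes. The median log2 ratio was -0.77, close to the -0.62 of all genes. Fos was at 1817 and 2968 CPM (log2 ratio -0.71 [-0.79 to -0.63], 12 and 15 wells) and Zfp36, which binds and destabilises messenger RNA, at 990 and 839 CPM (log2 ratio 0.24 [0.11 to 0.36], 10 and 11 wells). Both ratios took the other sign under some setting. Jund was at 3.71 and 76.5 CPM (log2 ratio -4.04 [-6.27 to -2.96], 3 and 7 wells). Within smooth muscle-like wells 1 of 18 was higher and 11 lower, against 39.4% and 45.7% of all genes there. The median was -1.32, against -0.45.

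Collagen and matrix genes were counted in 12 of 16 anterior and 18 of 18 posterior wells, at 1730 and 2848 CPM in sum, and fibroblast markers in 11 and 14 wells. Of 17 measured collagen and matrix genes 3 were higher and 11 lower in anterior wells, with a median log2 ratio of -2.49. Of 6 measured fibroblast markers 1 was higher and 4 lower, with a median of -3.31. The shares of all genes were 32.3% and 46.0%, with a median of -0.62. In the 3 endothelial-like posterior wells the fibroblast markers summed to 7470 CPM, against 713 CPM in the posterior wells of cluster 2 and 954 CPM in the anterior wells of cluster 0. Elastin, Eln, had 0 anterior counts and was counted in 4 posterior wells, at least 33.7-fold lower. Fbln5, which helps assemble elastic fibres, had 0 anterior counts and 206.3 CPM in 2 posterior wells. The proteoglycan Dcn was counted in 1 posterior well only. Mgp, an inhibitor of calcification, was counted in 7 anterior and 8 posterior wells, at 225.7 and 313.6 CPM (log2 ratio -0.47 [-0.71 to -0.24]), and its ratio took the other sign under some setting.

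Ptgds, the prostaglandin D synthase of arachnoid and pial cells (chr2:25466709-25470046), was at 801 CPM in 1 anterior well and at 52.1, 129.3, 224.2, 319, 403, 786 and 1186 CPM in 7 posterior wells. The posterior wells surround the anterior value. The sums were 81.7 and 215.5 CPM (log2 ratio -1.39 [-1.76 to -1.04]), with a range of -7.94 to -0.14 over the settings tried. Of 14 measured genes of lipid carriers and prostaglandin synthesis 4 were higher and 8 lower, against 32.3% and 46.0% of all genes. Their median was -1.21, against -0.62.

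The patterning list, factors that mark position in the developing head and skull, holds Foxc1 and Tbx18 but had no steady direction as a whole. Of 14 measured 4 were higher and 8 lower in anterior wells, against 32.3% and 46.0% of all genes. The median was -1.98 in the sums, but 1.07 without the deepest well of each region. Zic1, a zinc finger factor of the dorsal neural tube and meninges that overlaps Zic4, was at 267 and 62.4 CPM (log2 ratio 2.08), with 96.5% of anterior counts in 1 well and a ratio of -2.28 without it. Nr2f2, a nuclear receptor that sets vein identity, was at 107.7 and 83.2 CPM (log2 ratio 0.37 [-0.02 to 0.77], 5 and 6 wells), an interval that holds equal levels.

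Retinoic acid, made by the meninges and read by the brain surface beneath, had few measured genes. Of 5 measured 3 were higher and 2 lower, with a median of 1.02, and -0.37 without the deepest well of each region. Dhrs3, which turns retinal back to retinol, was at 1486 and 44.1 CPM with 97.9% of the anterior counts in 1 well. The receptor Rara was counted in 3 anterior and 0 posterior wells, at 178.3 CPM in anterior wells and at least 71.4-fold higher.

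**Figure D4:**
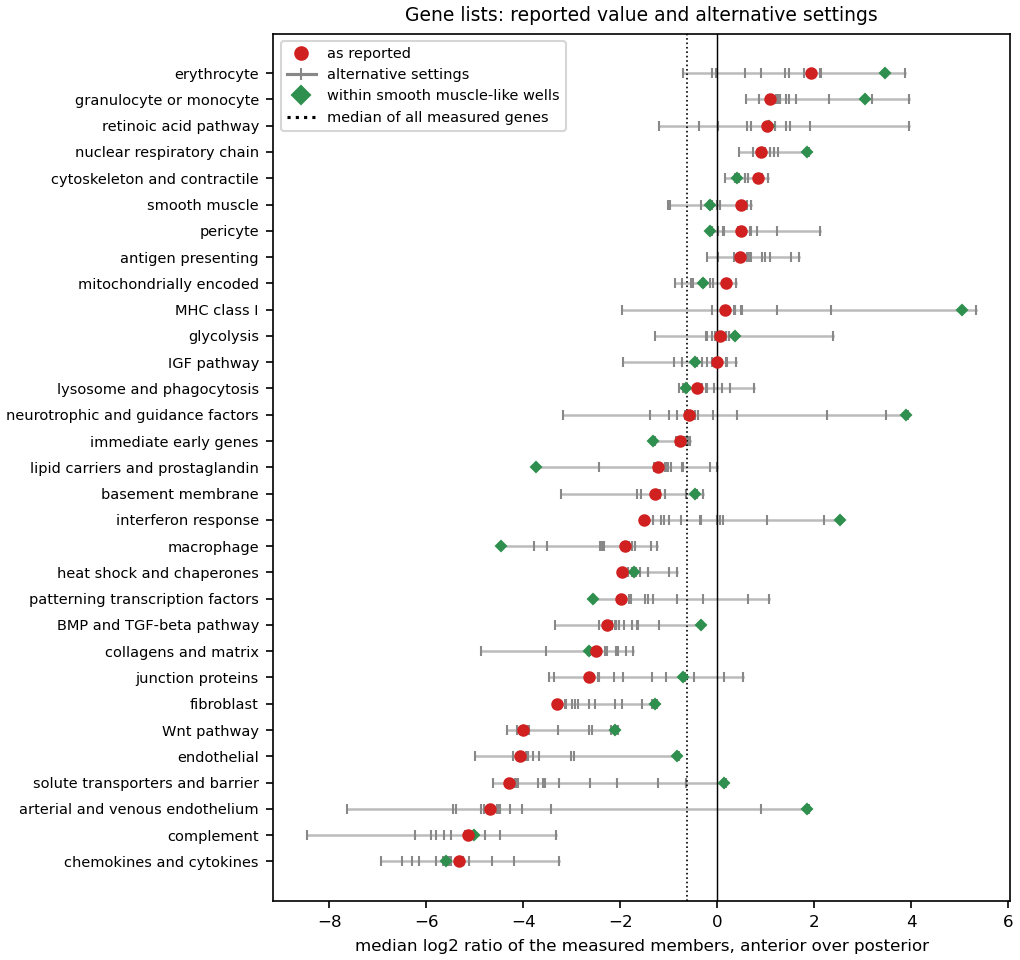
Median log2 ratio (anterior over posterior) of the measured members of each gene list, with a red point for the sums, ticks for the alternative settings, a green diamond for smooth muscle-like wells alone and a dotted line at the median of all 7364 genes. Among the settings shown, complement, chemokines and chaperones stay below 0 and the respiratory chain stays above 0. The patterning, interferon and artery and vein lists cross 0. No setting shown leaves out the well with most counts of each gene, and the scaling settings move ratios by 0.203 or less.

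The other lists were read against the same shares and median of all genes (32.3% higher, 46.0% lower, -0.62). The MHC class I list had 1 of 8 higher and 2 lower (median 0.17), lysosome and phagocytosis 3 of 22 higher and 9 lower (-0.42), and glycolysis 5 of 16 higher and 4 lower (0.05). The IGF list had 2 of 5 higher and 2 lower (-0.01). BMP and TGF-beta genes had 3 of 17 higher and 11 lower (-2.28), Wnt genes 0 of 5 higher and 4 lower (-3.998) and basement membrane genes 2 of 9 higher and 5 lower (-1.27). Junction proteins had 2 of 7 higher and 5 lower (-2.65), interferon response genes 4 of 14 higher and 7 lower (-1.52) and neurotrophic and guidance factors 4 of 11 higher and 4 lower (-0.58). The 4 measured pericyte markers had 2 higher and 1 lower (0.49). Within smooth muscle-like wells, 6 of 6 measured MHC class I genes were higher and 0 lower (median 5.03). All genes there had 39.4% higher, 45.7% lower and a median of -0.45. That class includes the well with T or NK cell markers, and the MHC class I median ranged from -1.96 to 5.34 over the settings tried.

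The 15 most extreme genes in each direction under the naming rule came from many processes. Beside Fgr, Rac2, Sdhb and Cytip, those higher in anterior wells were led by Ugp2, which makes UDP-glucose, with 5 anterior and 0 posterior wells, 117.9 CPM and at least 47.3-fold higher. It is also the leading gene of cluster 0. The oxysterol-binding protein Osbpl9, which overlaps Nrd1, had 5 anterior and 0 posterior wells and was at least 22.0-fold higher. The splicing gene Cdc40 was at 78.9 and 2.496 CPM (log2 ratio 4.52 [3.39 to 7.29]). Of mitochondrial genes, Smdt1, a subunit of the calcium uniporter, was at 672 and 16.6 CPM (log2 ratio 5.25 [4.70 to 6.06]) and the import channel subunit Timm17a at 177.4 and 13.3 CPM (log2 ratio 3.64 [3.00 to 4.57]).

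The remaining higher genes were counted in 5 to 8 anterior wells each. The nuclear body protein Sp100 was at 361.2 and 11.6 CPM (log2 ratio 4.84), the signal recognition particle subunit Srp9 at 122.6 and 4.99 CPM (4.37) and the fatty acid reductase Tecr at 99.4 and 4.16 CPM (4.28). The ubiquitin-conjugating enzyme Ube2l3, overlapping Ydjc, was at 106.8 and 7.49 CPM (3.67), and Tmem234, overlapping Ccdc28b, at 475 and 21.6 CPM (4.39).

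Those lower in anterior wells were led by Golga4 (chr9:118506267-118582519), a golgin that tethers vesicles to the Golgi. It had 0 anterior counts and was at 272.98, 292.4, 1239, 1331 and 2382 CPM in 5 posterior wells, at least 111.7-fold lower. The histone chaperone Anp32b had 0 anterior counts and was in 8 posterior wells between 19.9 and 2744 CPM, at least 74.9-fold lower, and after thinning it was expected in 0% and 43.9% of wells. The TGF-beta feedback inhibitor Pmepa1 and the Hippo pathway gene Wwc2 each had 0 anterior and 5 posterior wells, at least 57.6-fold and 44.2-fold lower.

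Of genes of the cell cortex, the protein kinase C substrate Marcks was at 2.79 and 391.8 CPM (log2 ratio -6.70 [-9.42 to -5.58], 1 and 7 wells) and the actin adaptor Cd2ap at 1.86 and 334 CPM (log2 ratio -6.87 [-10.54 to -5.63], 1 and 7 wells). Brk1, of the actin-nucleating WAVE complex, had 0 anterior and 5 posterior wells and was at least 29.0-fold lower. Of nuclear genes, the transcription and export factor Eny2, the chromatin remodeller Rsf1, the RNA-binding protein Qk and the O-GlcNAc hydrolase Mgea5 had 0 anterior counts and 5 or 6 posterior wells, at 85.7, 70.7, 79.03 and 69.05 CPM. They were at least 30.8-fold, 25.4-fold, 28.4-fold and 24.8-fold lower. The peptidase Blmh was at 1.86 and 143.1 CPM (log2 ratio -5.66 [-9.32 to -4.39]) and the endoplasmic reticulum protein Reep3, overlapping Jmjd1c, at 0.93 and 100.7 CPM (log2 ratio -5.72 [-12.07 to -4.26]).

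The full-length libraries of the same study hold 15 anterior and 49 posterior cells of this age with at least 500 genes. The labels do not say whether both library types drew on the same cell suspension, so values are set side by side. Over 12485 genes measured there, 36.0% were at least 2-fold higher and 40.1% at least 2-fold lower. Complement and chemokines had medians of -1.79 and -2.22 there, against -5.13 and -5.33 in the 3-prime libraries. The macrophage list had medians of -1.19 and -1.89. Of 28 lists with at least 4 measured genes in both library types, 15 had medians of opposite sign. The artery and vein list was at 1.28 there against -4.68, transporters and barrier genes at 0.41 against -4.29, erythrocyte markers at -4.45 against 1.93 and fibroblast markers at 0.32 against -3.31. The granulocyte and monocyte list was at -2.43 against 1.09, collagens and matrix at 0.69 against -2.49, the patterning list at 1.107 against -1.98, interferon response genes at 1.03 against -1.52 and the respiratory chain at -0.11 against 0.89. Ackr1 had a log2 ratio of 2.03 [1.75 to 2.35] there against -4.68 here. Foxc1 had a log2 ratio of 3.20 there against -5.11 here, and Ptgds -6.06 against -1.39. Of the 30 named genes 27 were measured there, 11 with the same and 16 with the opposite sign, and of 3128 genes at 50 CPM measured in both, 53.7% had the same sign.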

How the data were processed

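Single meningeal cells were sequenced on the ICELL8 system, and the authors deposited raw counts in 1 table, with 39179 Ensembl gene IDs as lines and cells as columns, per the file headers. The build mm10 and the aligner STAR 2.7.0a are named per the submitters' processing notes. Which counting program, strand setting and gene annotation they used is not given in the sources used here, so reads of overlapping genes cannot be told apart. Symbols were matched for 37607 IDs through GENCODE M21. Groups came from the cell titles, and 221 other columns of per-cell values were not used. The members and the gene lists were chosen with earlier results of these data known.

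Cells with a count in at least 500 genes were kept. Counts were summed per region and divided by the total to give CPM, genes at 10 CPM or more in either region were measured, and log2 ratios have 1 CPM added. Ratio intervals are exact conditional binomial, and shares of cells have Clopper-Pearson intervals, all at 95%. The level of a 0 is set to 3 counts over the group. A gene was named at 50 CPM or more in the higher region, a count in at least 25% and 5 of its wells, no well above 50% of the counts and at least 2-fold in sums and in the mean of wells, with the share of wells going the same way. The 15 largest ratios each way were named, besides members of the lists, and a few genes are not reported here. With 1 sample a region no test was run. Shares of wells were recomputed after thinning to 19000 counts, which left out 2 wells of each region.

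Clusters came from scanpy 1.11.5 (1000 variable genes, 15 principal components, 10 neighbours, Leiden resolution 1) and were named from at least 3 raised markers of a class. A name also required that no other class had more markers among the 10 leading genes of the cluster. The leading genes of the unnamed cluster held Ccr2, of the granulocyte and monocyte list, and no macrophage marker. No doublet caller was run, and 1 cell held at least 50% of the markers of 2 classes. Alternatives covered cell filters, scaling (edgeR 4.0.16 TMM factors, median of ratios), weighting, pseudocount, single wells and classes. The code (Python 3.11.15, numpy 2.4.6, pandas 2.3.3, scipy 1.17.1) was checked on simulated data.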

Additional observations from a re-analysis of the deposited data

Results flagged for a closer look

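For 11 of the named genes, the counting interval of the ratio lay on one side of equal levels in the 3-prime libraries and on the other side in the full-length libraries. The difference between library types was not tested. Of genes higher in the anterior 3-prime wells, the log2 ratio (anterior over posterior) in the full-length libraries was -2.59 for Ugp2, -2.30 for Sdhb, -5.95 for Sp100, -3.13 for Cdc40, -5.65 for Tmem234, -1.40 for Ube2l3 and -1.53 for Timm17a. Of genes lower in the anterior 3-prime wells, it was 1.86 for Marcks, 1.8 for Eny2, 1.86 for Qk and 1.5 for Rsf1.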

How the results depend on the processing

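A turn of sign was counted for list medians and gene ratios of at least 2-fold in the sums. In the settings tried, 7 of 31 list medians and 4 of 99 gene ratios turned. The 31 and the 99 include values under 2-fold in the sums, which could not count as a turn. Genes with 0 counts in 1 region could turn in few settings, if any. Values under 2-fold could also cross 0, as for smooth muscle markers (-1.02 to 0.69), and 160 of 514 list settings moved a median by more than its members' interval. Both counts of genes past 2-fold were within 1.5 times the reported ones in 32 of 34 settings. With a minimum of 50 CPM they were 1277 higher and 1774 lower. The settings for these counts and for list medians did not leave out the well with most counts of each gene. The turns were as follows. The erythrocyte median was -0.11 by the mean of wells, -0.034 without the 3 deepest wells of each region and -0.70 within the unnamed cluster. The patterning median was 1.07 without the deepest and 0.63 without the 3 deepest wells of each region. The retinoic acid median was -1.20 with no minimum of genes per well and -0.37 without the deepest wells. The junction median was 0.13 by the mean of wells and 0.52 without the 3 deepest wells. The interferon median was 0.054 at 1000 genes a well, 1.02 without the 3 deepest wells, 2.527 within smooth muscle-like wells, 2.19 there without the well with T or NK cell markers, and 0.12 within the unnamed cluster. Transporters were at 0.14 within smooth muscle-like wells and 0.18 there without that well. The artery and vein median was 1.85 within smooth muscle-like wells, 1.89 there without that well, and 0.90 without the endothelial-like wells, and Ackr1 was at 1.09, 1.133 and 1.24 in the same order. Cnn1 was at -0.18 by the mean of wells, -0.84 without the deepest well of each region, and -0.46 both without the deepest anterior well and without the well with most of its counts. Zic1 was at -2.28 without the latter kind of well. Dhrs3 was at -0.001 at 1000 genes a well and -0.37 without the deepest wells. At Leiden resolution 0.5 the endothelial-like share was 0% of posterior wells, and the unnamed share was 0% in both regions at resolutions 0.5 and 2. The endothelial-like share at resolution 2 was 12.5% of anterior and 22.2% of posterior wells. The cause was not tested.

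The settings without the deepest anterior well only, without the endothelial-like wells, within the unnamed cluster and without the well with T or NK cell markers were chosen after seeing the data. No paired analysis was possible because the well titles carry no replicate number and each region is 1 sample. Depth limits every count of 0: 3 counts over the group are 2.79 CPM in anterior and 2.496 CPM in posterior wells. A share of 0 of 16 wells allows up to 20.6% of wells with a count at these depths, and says nothing of cells expressing a gene below them. With wells of 11030 to 331786 counts, a sum follows its deepest wells.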

Other observations

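The wells with fewer than 500 genes, which enter no comparison, were 10 anterior wells with a median of 2653 counts, and 19 posterior wells with a median of 5278 counts. Smooth muscle markers were also the most widespread list in these: at least 4 of 7 were counted in 2 of the 10 anterior and 4 of the 19 posterior wells. No left-out well held 6 or more of the 12 endothelial, macrophage or fibroblast markers. Mitochondrially encoded genes took 41.8% of the summed counts of the left-out anterior wells and 64.1% of those of the left-out posterior wells, against 23.2% and 22.1% in the kept wells.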
